A study of Sus scrofa with 16 samples.

Results

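Keratins 7, 8, 18, 19 and 20 are the simple epithelial keratins, the intermediate filament proteins of single-layered epithelia such as the lining of the gut. Their genes were looked up by symbol in the droplet sequencing data of 4 regions of the pig small intestine. Of the 5 genes, 4 were matched among the 25880 genes listed: KRT7 (ENSSSCG00000038966), KRT8 (ENSSSCG00000000252), KRT18 (ENSSSCG00000000253) and KRT20 (ENSSSCG00000017459). No row carried the symbol KRT19, so KRT19 was not analysed here. The 4 genes were described by gut region and by epithelial cell class.

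Keratins assemble only in pairs of an acidic type I chain and a basic type II chain. KRT8 is the main type II keratin of simple epithelia and KRT18 its classical type I partner, while KRT19 and KRT20 are type I chains that can take the place of KRT18. KRT7 is a second type II chain, best known from ducts and glands. In the intestine KRT20 is known from differentiated cells of the villus and surface, and KRT8 from the whole epithelium. In the RefSeq gene table for Sscrofa11.1, KRT7, KRT8 and KRT18 lie on 1 chromosome, and KRT8 and KRT18 are separated only by LOC106506682. KRT19 and KRT20 lie together on another chromosome, with KRT20 between KRT23 and KRT12. The files name no build of their own, and the table served for names and gene order only.

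The animals were female mixed-breed pigs aged 7.5 weeks. DUOD stands for duodenum directly after the pylorus and JEJ for jejunum taken farther along. IPP stands for ileum dissected to contain Peyer's patches, clusters of lymphoid follicles in the gut wall, and NoPP for ileum dissected to lack them. All 4 regions shared 1 preparation, in which dithiothreitol and EDTA released the epithelium and a Percoll gradient kept viable cells, and 3′ libraries were made on the 10x Chromium system. The labels list 16 titles, 4 per region, but each region has 1 matrix and no label ties a barcode to a title. A region was therefore 1 sample, differences between regions or cell classes have no replicate check, and no test was possible. Intervals below are exact 95% Poisson intervals and cover counting error only. A gene is said to be past 2-fold when its ratio was at least 2 in either direction.

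The matrices held 44726845 to 91813234 UMIs, unique molecular identifiers that mark single captured transcripts. A barcode was kept if it had 1000 UMIs or more from 500 genes or more and no more than 25% mitochondrial UMIs, which 718, 986, 3273 and 2205 barcodes did in DUOD, JEJ, IPP and NoPP. The libraries share barcodes. Of the kept barcodes, 298 also had at least 1000 UMIs in another library, and 121 barcodes of NoPP whose UMIs were 10 times as many or more elsewhere were left out. Of the 7061 remaining cells, 935 were epithelial and 5975 immune by marker genes. Median depth was 3645.5 to 4452 UMIs per cell across the 4 libraries.

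Epithelial cells were sorted into classes by the summed share of a marker panel, none of which contains a keratin. The classes were enterocytes, the absorptive cells (567), enteroendocrine cells, which secrete hormones (127), goblet cells, which secrete mucus (95), BEST4 cells, an absorptive class marked by the channel BEST4 (45), crypt cells (28) and tuft cells (2). Such a gate cuts a range of scores and is not a cell type in itself. Within 1.5 times of the cut lay 45 enterocytes, 7 goblet cells, 4 enteroendocrine cells, 3 BEST4 cells and 24 of the 28 crypt cells, so the crypt class is the least sharply bounded. The enterocyte panel had a median of 383 to 1030 UMIs per 10000 in the enterocytes of the 4 regions and 23.2 to 42.4 in enteroendocrine cells. The 17 jejunal crypt cells also carried the myeloid panel, which includes LYZ (lysozyme), at a median of 54.7 per 10000, against 53.9 for the crypt panel. The Paneth panel, which shares LYZ, had the same median of 54.7, and summed over these cells it was 72.9 per 10000, against 53.2 for the crypt panel. Values are compared for the 13 groups of region and class with at least 10 cells. The rule of the gates was set after the data had been seen.

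KRT8 was high in all 13 groups, and KRT20 in all but the jejunal crypt cells (340 CPM) and the DUOD enteroendocrine cells (105 CPM). KRT18 was high in goblet and enteroendocrine cells and low in enterocytes, and KRT7 was found almost wholly in enteroendocrine cells. The enteroendocrine cells were 13.6% of the epithelial cells and held 87.4% of the 657 epithelial KRT7 UMIs. Goblet and enteroendocrine cells together were 23.7% of the cells and held 74.6% of the 3100 KRT18 UMIs. Enterocytes were 60.6% of the cells and held 12.8% of the KRT18 UMIs, 54.9% of the 30026 KRT8 UMIs and 75.5% of the 18340 KRT20 UMIs. The counts come from transcript 3′ ends and do not scale with transcript length, so levels of different keratins are set side by side as CPM, in which UMIs are scaled to the same total in every group.

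**Figure D1:**
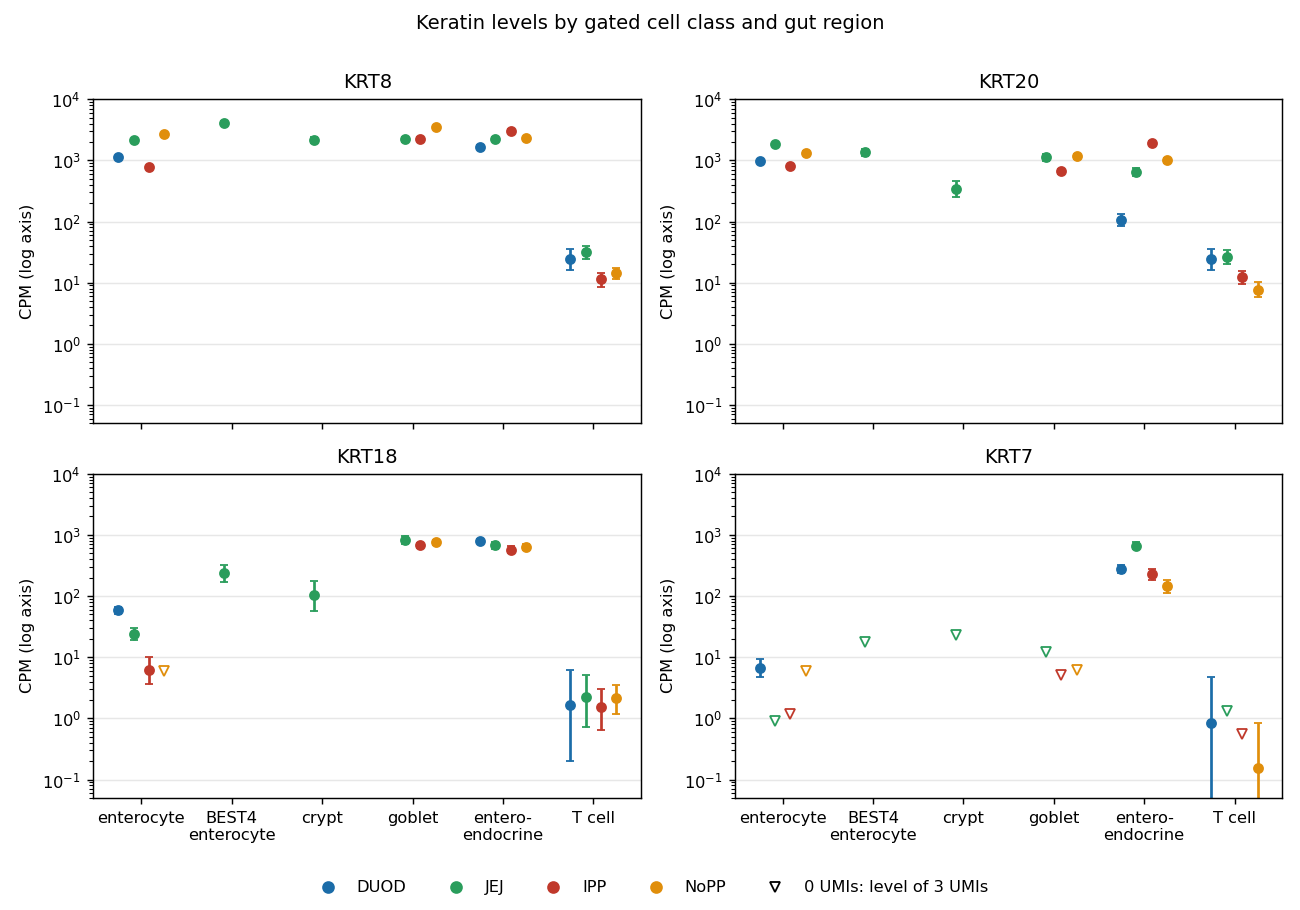
Level of KRT7, KRT8, KRT18 and KRT20 (CPM, log axis) by region and cell class, with exact 95% Poisson intervals from counting alone; open triangles mark groups with 0 UMIs, drawn at the level of 3 UMIs. KRT8 lies between 784 and 4087 CPM in all 13 epithelial groups, and KRT18 between 576 and 832 CPM in the goblet and enteroendocrine groups but at most 58.1 CPM in enterocytes.

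KRT8, the type II chain common to all simple epithelia, stood at 1142 CPM in the enterocytes of DUOD (1113 to 1172; 5902 UMIs), 2172 in JEJ (2122 to 2222), 784 in IPP (750 to 819) and 2652 in NoPP (2511 to 2799). The order of these 4 levels was IPP, DUOD, JEJ and NoPP, and no neighbouring intervals overlapped. In goblet cells KRT8 was 2213 CPM in JEJ (2031 to 2408), 2244 in IPP (2126 to 2368) and 3485 in NoPP (3321 to 3655). The JEJ and IPP goblet levels could not be told apart, and NoPP lay above both. In enteroendocrine cells KRT8 was 1668 CPM in DUOD (1576 to 1763), 2257 in JEJ (2093 to 2431), 3071 in IPP (2908 to 3240) and 2298 in NoPP (2155 to 2447). Summed over cells, the jejunal BEST4 cells had the highest KRT8 level of the 13 groups, 4087 CPM (3789 to 4402). Their median cell had 2195 CPM, below the median cell of NoPP goblet (3246) and IPP enteroendocrine cells (3276). The shallower BEST4 cells had 2053 CPM and the deeper ones 4632, divided at their median depth. The jejunal crypt cells had 2170 CPM (1926 to 2436), of which 1 cell gave 33.1%. T cells, which are not known to use KRT8, had 11.3 to 31.4 CPM, taken here as the background of these libraries.

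KRT20, the type I chain of differentiated gut epithelium, was 972 CPM in DUOD enterocytes (945 to 999; 5021 UMIs), 1828 in JEJ (1783 to 1875), 804 in IPP (770 to 840) and 1331 in NoPP (1232 to 1436). IPP enterocytes were the lowest for KRT20 as for KRT8, while JEJ and not NoPP was the highest. Goblet cells had 1119 CPM in JEJ (990 to 1260), 667 in IPP (603 to 735) and 1160 in NoPP (1066 to 1260). The JEJ and NoPP goblet intervals overlapped. Enteroendocrine cells differed most between regions: 105 CPM in DUOD (83.5 to 131; 79 UMIs in 16 of 38 cells), 644 in JEJ (558 to 740), 1916 in IPP (1788 to 2051) and 1010 in NoPP (916 to 1111), a range of 18.2-fold. Of the 79 DUOD UMIs, 1 cell gave 25.3%. The jejunal BEST4 cells had 1372 CPM (1202 to 1560). The jejunal crypt cells had 340 CPM (248 to 455), with 57.8% of the 45 UMIs in 1 cell. T cells had 7.72 to 26.5 CPM.

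Single enterocytes spread widely around these sums. In DUOD the quartiles of KRT8 per cell were 679, 1141 and 1642 CPM, and in NoPP 1120, 1968 and 4381. In IPP they were 51.8, 309 and 1131, and the median cell of IPP lay below the first quartile of the other 3 regions. KRT20 was spread less in IPP, with quartiles of 374, 699 and 1090 CPM. Of the 155 IPP enterocytes, 34 had no KRT8 UMI and 6 no KRT20 UMI. The Pearson correlation of both genes across the cells of 1 group stood at 0.35 for DUOD, 0.59 for JEJ, 0.71 for IPP and 0.40 for NoPP, as a description of cells that share a library and its depth.

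**Figure D2:**
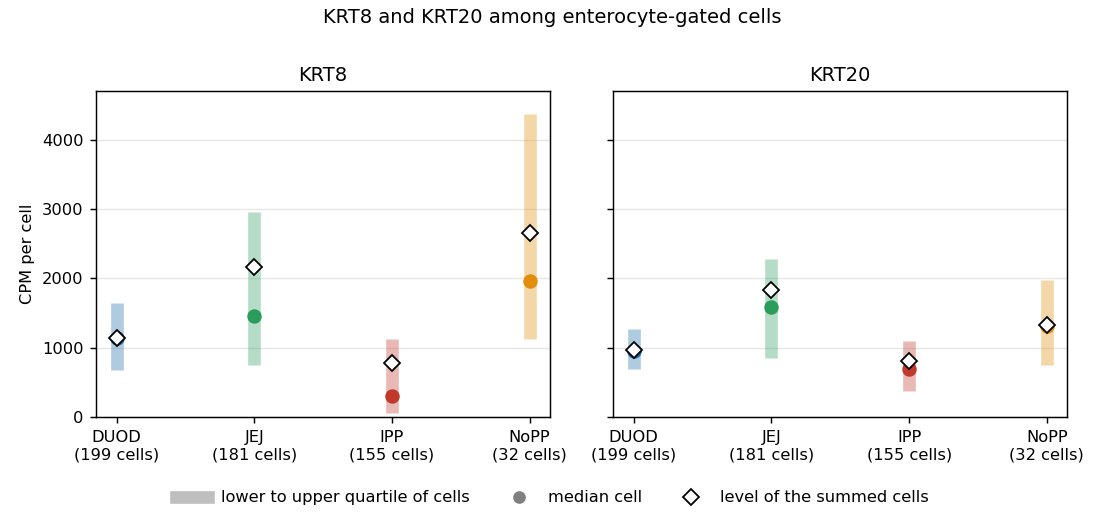
KRT8 and KRT20 in single enterocytes of the 4 regions (CPM per cell); the bars run from the lower to the upper quartile of the cells, the dots mark the median cell and the open diamonds the level of the summed cells. The median for KRT8 is 1141, 1463, 309 and 1968 CPM in DUOD, JEJ, IPP and NoPP; for KRT20 it is 953, 1582, 699 and 1313 CPM.

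KRT18, the usual type I partner of KRT8, was low in enterocytes at every site. It was 58.1 CPM in DUOD (51.7 to 65.0; 300 UMIs in 123 of 199 cells), 24.0 in JEJ (19.0 to 29.8; 80 UMIs in 30 of 181 cells) and 6.26 in IPP (3.58 to 10.2), where 14 of the 16 UMIs came from 1 cell. In the 32 NoPP enterocytes no KRT18 UMI was found, which allows up to 6.02 CPM. T cells had 1.50 to 2.21 CPM, so the DUOD and JEJ enterocytes stood above that level, while the 2 IPP UMIs outside that 1 cell do not. Goblet cells had 832 CPM in JEJ (722 to 955), 672 in IPP (607 to 741) and 759 in NoPP (683 to 840). Enteroendocrine cells had 797 CPM in DUOD (734 to 864), 677 in JEJ (588 to 775), 576 in IPP (507 to 652) and 632 in NoPP (558 to 713). The range between regions was 1.24-fold in goblet cells and, with hormones in the totals, 1.38-fold in enteroendocrine cells. The absorptive BEST4 cells of JEJ were in between, with 235 CPM (168 to 319; 40 UMIs in 11 of 29 cells), and the crypt cells of JEJ had 106 CPM (57.9 to 178; 14 UMIs in 6 of 17 cells). The BEST4 cells of the other regions, too few to compare, had 263 CPM in DUOD (6 cells), 306 in IPP (3 cells) and 199 in NoPP (7 cells).

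KRT7 was found in 77 of the 127 enteroendocrine cells. Its level there was 276 CPM in DUOD (240 to 317; 207 UMIs in 24 cells), 670 in JEJ (582 to 768; 207 UMIs in 15 cells), 228 in IPP (186 to 278; 99 UMIs in 19 cells) and 145 in NoPP (111 to 186; 61 UMIs in 19 cells). JEJ was the highest and NoPP the lowest, and the DUOD and IPP intervals overlapped. In enterocytes it was 6.77 CPM in DUOD (4.72 to 9.42), where 17 of the 35 UMIs came from 1 cell and 8 of 199 cells had any. No KRT7 UMI was found in the enterocytes of JEJ, IPP and NoPP, which allows up to 0.899, 1.17 and 6.02 CPM. None was found in the 93 goblet cells of JEJ, IPP and NoPP either, where the limits are 12.3, 5.02 and 6.20 CPM, nor in the 29 BEST4 and 17 crypt cells of JEJ, where they are 17.6 and 22.7 CPM. The 4044 T cells held 2 KRT7 UMIs. The remaining epithelial KRT7 was in small sets of cells outside the compared groups, mainly 18 UMIs in the 7 DUOD cells that met no gate, 12 of them in 1 cell, and 25 in the 9 IPP cells that met several gates, 20 of them in 1 cell.

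Shares of cells with a UMI were also taken at 1 common depth. Cells were thinned to 1000 UMIs each, and none was shallower. KRT18 was then detected in 0 to 6.53% of enterocytes, 41.0 to 64.1% of goblet cells and 25.0 to 52.6% of enteroendocrine cells across regions, against 0 to 0.342% of T cells. It was detected in 3.45% of the BEST4 and 23.5% of the crypt cells of JEJ, the reverse of the order of their CPM, so no order is read from these shares. Without thinning the shares were 27.5% of 567 enterocytes (median depth 7899 to 27409 UMIs by region), 93 of 93 goblet cells, 96.1% of 127 enteroendocrine cells and 0.643% of the T cells, whose median depth was 2867 to 3585 UMIs. KRT8 was detected after thinning in 66.8, 75.7, 38.1 and 71.9% of the enterocytes of DUOD, JEJ, IPP and NoPP, against 1.16 to 2.56% of T cells. KRT20 was detected in 62.8, 77.9, 47.1 and 68.8% of the same enterocytes. KRT7 was detected in 18.4, 40.0, 10.0 and 10.3% of enteroendocrine cells in that order of regions.

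The classes were then compared within each library, always against its enterocytes, which the comparisons of a region therefore share. There were 9 such comparisons, and all 31 ratios that could be formed for the 4 keratins had at least 50 CPM in 1 of both groups. Of these, 16 were past 2-fold higher than in enterocytes and 3 past 2-fold lower, beside 25.8% and 25.0% of the ratios of all genes. KRT18 was higher in 9 of 9 comparisons and KRT7 in 4 of the 4 where it could be compared. Enterocytes held at most 6.77 CPM of KRT7, so it reached 50 CPM only through the enteroendocrine cells and could only come out higher. KRT18 was at most 24.0 CPM in the enterocytes of JEJ, IPP and NoPP, so in these regions it too could only come out higher. Its DUOD ratio alone was free to go either way. The KRT7 ratios and the KRT18 ratios of JEJ, IPP and NoPP are among the 16 and add nothing to the comparison with all genes. KRT8 was higher in 2 of 9, and KRT20 was higher in 1 and lower in 3 of 9.

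In enteroendocrine cells KRT18 was 13.7-fold higher than in enterocytes in DUOD (11.9 to 15.8), 28.2-fold in JEJ (21.7 to 37.0) and 92.0-fold in IPP (55.6 to 163). In NoPP, where enterocytes held no UMI, it was at least 105-fold higher against a floor of 3 UMIs for the group. KRT7 was 40.8-fold higher in DUOD (28.4 to 60.2) and, against the same floor, at least 746-fold higher in JEJ, 194-fold in IPP and 24.1-fold in NoPP. The KRT8 ratios were smaller and, with hormones in the totals, differed in direction: 1.46-fold higher in DUOD (1.37 to 1.55), 1.04-fold in JEJ (0.960 to 1.12), 3.92-fold in IPP (3.65 to 4.20) and 1.15-fold lower in NoPP (1.06 to 1.26). Hormones in the enteroendocrine totals lower such ratios, so no KRT8 direction is read for NoPP. KRT20 was 9.21-fold lower in DUOD (7.38 to 11.7), 2.84-fold lower in JEJ (2.46 to 3.28) and 1.32-fold lower in NoPP (1.17 to 1.49), but 2.38-fold higher in IPP (2.20 to 2.58). For the same reason no KRT20 direction is read for NoPP. Past 2-fold were thus 2 keratins higher and 1 lower in DUOD and in JEJ, 4 higher in IPP and 2 higher in NoPP. KRT7 is 1 of the higher ones in each region and could only come out higher, as could KRT18 in JEJ, IPP and NoPP. Among all genes with at least 50 CPM the shares past 2-fold higher were 14.3, 24.6, 23.9 and 29% in DUOD, JEJ, IPP and NoPP, and past 2-fold lower 40, 25.4, 22.8 and 20.4%. The median gene was itself lower in DUOD enteroendocrine cells, by a log2 ratio of -0.61, and higher in JEJ, IPP and NoPP, by 0.13, 0.19 and 0.32. With 8 hormone genes out of the totals, the DUOD log2 ratios were 1.43 for KRT8 in place of 0.55, which takes it past 2-fold, -2.32 for KRT20 in place of -3.20, 4.66 for KRT18 in place of 3.78 and 6.23 for KRT7 in place of 5.35. In IPP, KRT20 came to a log2 ratio of 0.99 with panel cuts 2 times as high and 0.86 without mitochondrial, ribosomal and the 10 highest genes in the totals, just under 2-fold, in place of 1.25. Without the cell that held most of the gene's UMIs in each group, KRT18 in IPP came to 9.41 in place of 6.52 and KRT7 in DUOD to 6.05.

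In goblet cells KRT18 was 34.7-fold higher than in enterocytes in JEJ (26.7 to 45.5), 107-fold in IPP (65.2 to 189) and at least 126-fold in NoPP. KRT8 was 1.02-fold higher in JEJ, 2.86-fold in IPP (2.67 to 3.07) and 1.31-fold in NoPP. KRT20 was 1.63-, 1.21- and 1.15-fold lower in the same order and stayed within 2-fold. So 1, 2 and 1 keratins were past 2-fold higher in JEJ, IPP and NoPP, where 18.1, 25.1 and 28.1% of all genes were, and none was past 2-fold lower, where 32, 21.3 and 20.6% of all genes were. KRT18 is 1 of the higher ones in each of these regions. With at most 24.0 CPM in the enterocytes it could only come out higher. The median gene's log2 ratio was -0.38, 0.14 and 0.18. Without the highest cell of each group, KRT18 in IPP goblet cells came to a log2 ratio of 9.63 in place of 6.74. T cell markers summed to 32.8 to 1253 CPM in goblet, 25.4 to 631 in enteroendocrine and 34.3 to 520 in enterocyte groups, and their part in these ratios was not tested. Stress genes summed to 11137, 16749 and 19221 CPM in the goblet cells of JEJ, IPP and NoPP, against 4732, 4939 and 5147 CPM in the enterocytes, and their part was not tested either.

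In the jejunal BEST4 cells KRT18 was 9.78-fold higher than in enterocytes (6.52 to 14.5), KRT8 1.88-fold higher (1.74 to 2.03) and KRT20 1.33-fold lower (1.17 to 1.52). Of the 3, 1 was past 2-fold higher, beside 31.5% of all genes, and none lower, beside 22.7%. That was KRT18, at 24.0 CPM in the jejunal enterocytes, which could only come out higher here and in the jejunal crypt cells. In the jejunal crypt cells KRT18 was 4.42-fold higher (2.31 to 7.85), KRT20 5.37-fold lower (4.01 to 7.37) and the KRT8 ratio was 0.999 (0.885 to 1.12). There 34.7% of all genes were past 2-fold higher and 21.8% lower, and the median gene's log2 ratio was 0.41 (0.22 in BEST4 cells). When the panel cuts were set at 0.5 of their values, KRT18 in crypt cells came to a log2 ratio of 0.68 in place of 2.14. When cells took the class of their cluster, KRT20 in crypt cells came to -0.78 in place of -2.43.

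Between regions, each class was compared with itself in 10 comparisons, which share groups. Of 36 ratios, 32 had at least 50 CPM in 1 of both groups, and among all 36 there were 4 past 2-fold higher and 6 lower. Among the 32 there were 4 in each direction, beside 12.0% higher and 7.63% lower over all genes. Of the 4 lower, 2 were KRT18 in enterocytes against DUOD. It reached 50 CPM only through DUOD there, so these 2 could only come out lower and add nothing to the comparison with all genes. In enterocytes KRT8 was 1.90-fold higher in JEJ than in DUOD (1.84 to 1.97) and KRT20 1.88-fold (1.81 to 1.95), while KRT18 was 2.42-fold lower (1.89 to 3.14) and KRT7 at least 7.53-fold lower, with 17 of its 35 DUOD UMIs in 1 cell. KRT7 was under 50 CPM in both groups. Of the 3 keratins with at least 50 CPM, 1 was past 2-fold lower, beside 11.2% of all genes, and none higher, beside 10.9%. The lower one was KRT18, which could only come out lower. From JEJ to NoPP, KRT8 was 1.22-fold higher (1.15 to 1.30) and KRT20 1.37-fold lower (1.27 to 1.49), and KRT18, under 50 CPM in both groups, was at least 3.98-fold lower. No keratin with at least 50 CPM was past 2-fold, beside 13% of all genes lower and 9.87% higher. From DUOD to NoPP, KRT8 was 2.32-fold higher (2.19 to 2.47), KRT18 at least 9.64-fold lower and KRT20 1.37-fold higher, beside 14.3% of all genes past 2-fold higher and 17.4% lower. KRT18 could only come out lower in that comparison as well. The median gene's log2 ratio was -0.16 for NoPP against JEJ and -0.11 for NoPP against DUOD. With the barcodes of another library kept, KRT8 in NoPP against DUOD came to a log2 ratio of 1.00, just under 2-fold, in place of 1.22, and to 0.97 with a mitochondrial limit of 40%. Leaving out every barcode with 1000 UMIs in another library gave 1.34.

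Within the ileum, KRT8 was 3.38-fold lower in IPP than in NoPP enterocytes (3.15 to 3.63) and KRT20 1.66-fold lower (1.51 to 1.81). KRT8 alone was past 2-fold, beside 2.87% of all genes lower and 2.09% higher. The ratio rests on 32 NoPP cells, and the median share of mitochondrial UMIs was 17.7% in IPP and 13.9% in NoPP enterocytes. The gated cells also differed in their panels. The enterocyte panel had a median of 383 UMIs per 10000 in IPP and 1006 in NoPP, and the BEST4 panel 5.30 and 1.66. A panel of M cell markers had medians of 12.0 and 0.680, and 17.9 and 12.6 summed over the cells. The part of these differences in the KRT8 ratio was not tested. KRT8 was 747 and 802 CPM in the IPP enterocytes below and above their median depth and 3118 and 2451 CPM in those of NoPP. Genes for dissociation stress, such as FOS and heat shock genes, summed to 4939 CPM in IPP and 5147 in NoPP, 14 genes in all. In goblet cells no keratin was past 2-fold between IPP and NoPP: KRT8 was 1.55-fold lower (1.44 to 1.67), KRT20 1.74-fold lower (1.53 to 1.98) and KRT18 1.13-fold lower (0.978 to 1.30). There 2.48% of all genes were past 2-fold higher and 4.81% lower. Between NoPP and JEJ goblet cells KRT8 was 1.57-fold higher (1.43 to 1.74), and KRT18 and KRT20 were within counting error, beside 16.5% of all genes past 2-fold higher and 3.7% lower, with a median log2 ratio of 0.34.

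In enteroendocrine cells, with hormones in the totals, the region ratios of KRT7 and KRT20 were large and those of KRT8 and KRT18 small. KRT20 was 6.11-fold higher in JEJ than in DUOD (4.69 to 8.03) and KRT7 2.43-fold higher (1.99 to 2.96), beside 21.2% of all genes past 2-fold higher and 2.85% lower. From JEJ to NoPP, KRT7 was 4.63-fold lower (3.46 to 6.26) and KRT20 1.57-fold higher (1.32 to 1.86), beside 7.39% of all genes past 2-fold lower and 11.7% higher. From DUOD to NoPP, KRT20 was 9.57-fold higher (7.51 to 12.3) and KRT7 1.91-fold lower (1.43 to 2.58), beside 28.8% of all genes past 2-fold higher and 4.15% lower. Of the 4 keratins, 2 were past 2-fold higher in the first of these comparisons, 1 lower in the second and 1 higher in the third. Between IPP and NoPP no keratin was past 2-fold, beside 1.81% of all genes higher and 8.21% lower. KRT20 was 1.90-fold higher in IPP (1.69 to 2.14) and KRT7 1.57-fold higher (1.13 to 2.20). With hormones in the totals, KRT8 and KRT18 were within 1.38-fold in all 4 comparisons. KRT18 without hormones in the totals is given below, where DUOD was the highest. The median gene's log2 ratio was 0.53 for JEJ against DUOD, 0.60 for NoPP against DUOD and -0.19 for IPP against NoPP. Stress genes summed to 3658 CPM in the DUOD cells and 8753 in those of JEJ, and to 5236 in IPP with 8299 in NoPP, and their part was not tested. These ratios carry the hormones in their totals, which differ between regions. Without 8 hormone genes in the totals, KRT20 in JEJ against DUOD came to a log2 ratio of 2.04 in place of 2.61, and KRT7 to 0.70 in place of 1.28, while KRT7 in NoPP against DUOD came to -1.45 in place of -0.93. KRT7 in JEJ against DUOD also fell short of 2-fold as a mean of the cells' values (0.97) and without the barcodes of another library (0.93). Within each of the sets of enteroendocrine cells divided by hormones below, KRT7 was within 2-fold between JEJ and DUOD.

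The balance of KRT8 and KRT18, the classical pair, differed by class. KRT18 gave 4.84% of the pair's UMIs in DUOD enterocytes (4.32 to 5.40, exact binomial interval), 1.09% in JEJ (0.867 to 1.36), 0.793% in IPP (0.454 to 1.28) and 0% in NoPP (at most 0.279). In goblet cells it gave 27.3% in JEJ (24.1 to 30.7), 23.0% in IPP (21.1 to 25.1) and 17.9% in NoPP (16.2 to 19.6). In enteroendocrine cells it gave 32.3% in DUOD (30.2 to 34.5), 23.1% in JEJ (20.4 to 26.0), 15.8% in IPP (14.0 to 17.7) and 21.6% in NoPP (19.3 to 24.0). The 7 goblet and enteroendocrine groups were at or above 15.8%, and the 6 other groups at or below 5.43%, the share in jejunal BEST4 cells. Crypt cells of JEJ were at 4.65% (2.57 to 7.68), with the absorptive groups.

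**Figure D3:**
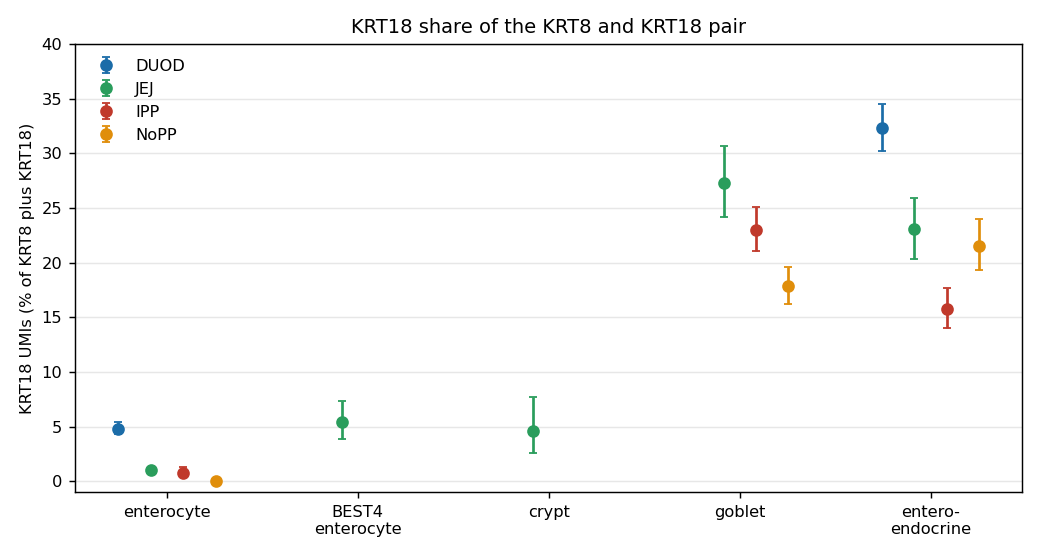
Share of KRT18 in the UMIs of KRT8 plus KRT18 (percent) by region and cell class, with exact 95% binomial intervals from counting alone. The goblet and enteroendocrine groups sit between 15.8 and 32.3%, all above the enterocyte, BEST4 and crypt groups, which sit between 0 and 5.43%.

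Of the KRT18 and KRT20 UMIs, KRT20 gave most in the groups where KRT18 was low. Type II chains (KRT7 and KRT8) gave 52.7% of the UMIs of the 4 keratins in DUOD enterocytes, 54.0% in JEJ, 49.2% in IPP and, for NoPP, 66.6%, and nearly all of the rest was KRT20. KRT8 stood to KRT20 as 1.18, 1.19, 0.975 and 1.99 in these enterocytes. In goblet cells the type II share was 53.1, 62.6 and 64.5% in JEJ, IPP and NoPP, with the type I part shared by KRT18 and KRT20. KRT18 was 42.6% of the KRT18 and KRT20 UMIs there in JEJ, 50.2% in IPP and 39.5% in NoPP. In enteroendocrine cells type II chains gave 68.3, 68.9, 57.0 and 59.8% in DUOD, JEJ, IPP and NoPP. KRT18 was 88.3% of the type I UMIs in DUOD enteroendocrine cells and 23.1% in IPP, the widest difference between regions in any class. The type II share was highest in the jejunal crypt cells, 82.9%, followed by the BEST4 cells, 71.8%. KRT19, not analysed here, and KRT14, a type I keratin described with the other keratins, would add to the type I side, so these shares hold among the 4 genes only. The 4 keratins together made up 1594 to 4024 CPM of the enterocyte groups, 3583 to 5403 of the goblet groups, 2847 to 5791 of the enteroendocrine groups, 5694 of the jejunal BEST4 and 2616 of the jejunal crypt cells, against 24.2 to 60.1 CPM in T cells.

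Enteroendocrine cells were divided further by hormone transcripts, since these fell into separate ranges. The leading hormone among SST, CCK, GIP, GHRL, MLN, NTS, PYY and GCG stood below 10 UMIs per 10000 in 39 cells, between 10 and 100 in 8, between 100 and 1000 in 4 and at 1000 or more in 76. A bound of 100, chosen after these values were seen, gave 47 hormone-poor cells and 80 hormone-led cells. Hormones took 31.9 to 54.2% of all UMIs in the hormone-led cells of a region and at most 0.127% in the hormone-poor cells. The hormone-poor cells had 10355 to 16889 CPM of CHGA, a granin of secretory granules, against 567 to 3157 in the hormone-led cells. Other genes of the enteroendocrine panel did not all go this way. CPE was lower in the hormone-poor cells of every region, at 646 to 875 CPM against 1238 to 2507. The granin CHGB was lower there in JEJ (2919 against 6799 CPM) and higher in DUOD, IPP and NoPP. These levels carry the hormones in their totals.

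KRT7 was concentrated in the hormone-poor cells. They were 37.0% of the enteroendocrine cells and held 462 of the 574 KRT7 UMIs (80.5%). A KRT7 UMI was present in 42 of 47 hormone-poor and 35 of 80 hormone-led cells. KRT7 was 1269, 1467, 448 and 323 CPM in the hormone-poor cells of DUOD, JEJ, IPP and NoPP, against 90.4, 125, 53.8 and 65.4 in the hormone-led cells. Without hormones in the totals, KRT7 in DUOD and JEJ was 1271 and 1469 CPM in hormone-poor and 197 and 184 CPM in hormone-led cells. Hormone-poor were 10 of 38 enteroendocrine cells in DUOD and 9 of 20 in JEJ. The part of this mix in the KRT7 ratio of JEJ to DUOD was not tested. Because hormones fill the totals of one set only, ratios were taken with the 8 hormones out of both totals. KRT7 was then 6.44-fold higher in hormone-poor cells in DUOD (4.72 to 8.90), 7.97-fold in JEJ (5.15 to 12.9), 4.78-fold in IPP (2.65 to 9.34) and 3.35-fold in NoPP (1.91 to 6.11). KRT20 was 3.08-, 2.55-, 2.39- and 2.87-fold higher and KRT8 1.26-, 2.44-, 2.31- and 2.04-fold higher in the same order. KRT18 was 1.33-, 1.58-, 1.69- and 1.19-fold higher, the last within counting error (0.927 to 1.53). Past 2-fold higher were thus 2 of the 4 keratins in DUOD and 3 of 4 in JEJ, IPP and NoPP, beside 13.4, 16, 14.9 and 13.4% of all genes, and none was past 2-fold lower, beside 17.8, 20.4, 15.8 and 18.2%. Without hormones in the totals, KRT18 was 1339, 649, 541 and 755 CPM in the hormone-led cells of DUOD, JEJ, IPP and NoPP. In the hormone-poor cells it was 1779, 1022, 912 and 899 CPM, so DUOD was the highest in both sets.

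**Figure D4:**
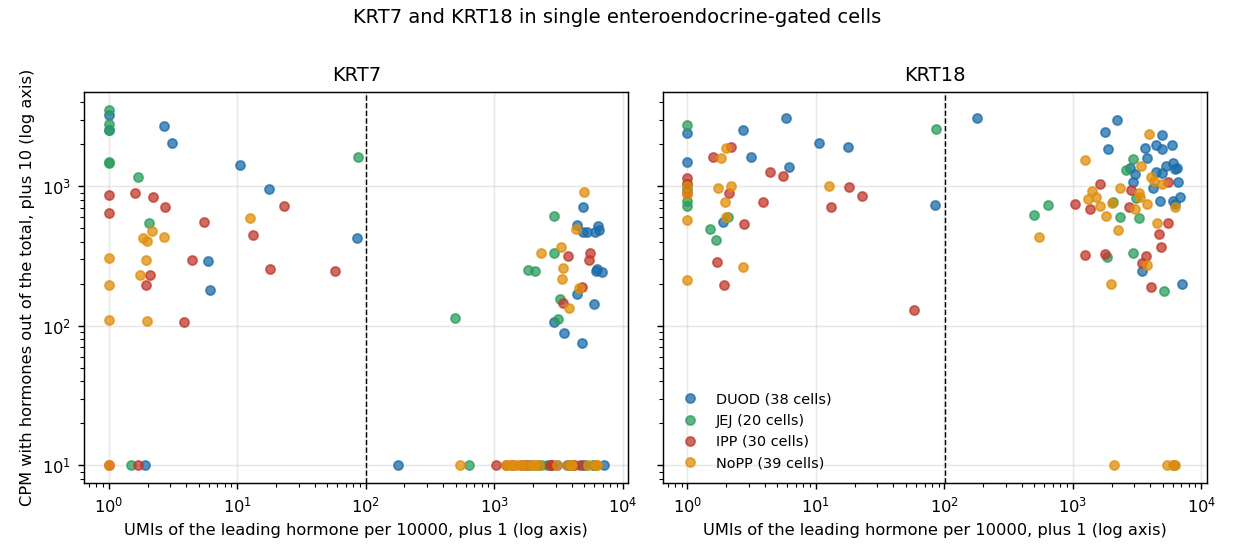
KRT7 and KRT18 (CPM with 8 hormones out of the total, plus 10, log axis) against the leading hormone (UMIs per 10000, plus 1, log axis) in each of the 127 enteroendocrine cells, coloured by region; the dashed vertical line is the bound of 100. A KRT7 UMI is present in 42 of the 47 cells left of the line and in 35 of the 80 cells right of it.

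Among hormone-led cells the levels of KRT7 and KRT20 differed by the leading hormone. KRT7 was 114 CPM in the 26 cells led by SST (somatostatin), 123 in the 9 led by CCK and 135 in the 15 led by NTS (neurotensin). No KRT7 UMI was found in the 17 cells led by PYY, which allows up to 12.7 CPM, nor in the 13 cells led by GIP (3), GHRL (4), MLN (3) and GCG (3). KRT20 was 1074 CPM in the PYY-led cells, all 17 of which had a UMI, 492 in NTS-led and 28.6 in SST-led cells, of which 3 of 26 had a UMI. KRT18 was 480 CPM in SST-led and 484 in PYY-led cells, and KRT8 was 947 and 1800 CPM. These levels carry the hormones in their totals, 53.3% of UMIs in SST-led and 26.1% in PYY-led cells. With the 8 hormones out, KRT18 was 1028 CPM in SST-led and 655 in PYY-led cells, and KRT8 was 2031 and 2435 CPM. The sets mix regions in unequal numbers, so region and hormone cannot be told apart here.

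Other keratin genes had few UMIs, with 1 exception. Of 33 other keratin symbols, 8 had any UMI in the 13 groups, 5 reached 10 CPM in a group and 3 reached 50 CPM. That was the gene labelled KRT14 (ENSSSCG00000017448), a keratin otherwise known from the basal layer of stratified epithelia, with 12202 UMIs in the 13 groups. Its level in enterocytes was 407 CPM in DUOD (390 to 425), 462 in JEJ (439 to 485), 805 in IPP (770 to 840) and 1791 in NoPP (1675 to 1912). It was 746 to 2144 CPM in enteroendocrine groups, 943 to 1831 in goblet groups, 1588 in jejunal crypt and 3419 in jejunal BEST4 cells, and 10.4 to 12.8 in T cells. KRT14 was 4.40-fold higher in NoPP than in DUOD enterocytes (4.07 to 4.76) and 7.40-fold higher in jejunal BEST4 cells than in enterocytes (6.72 to 8.15), and it stayed past 2-fold in both under every setting tried that gave a value. Whether the symbol names the same gene in all annotations was not tested. KRT79 was found only in the jejunal BEST4 cells among the 13 groups, with 22 UMIs (129 CPM), and KRT80 reached 52.8 CPM in the same cells, from 9 UMIs.

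Among genes with at least 50 CPM, those that tie keratin filaments to the cell border were past 2-fold lower than in enterocytes more often than higher. The list of 15 linkers and desmosome genes gave 67 ratios between classes with at least 50 CPM, of which 8 were past 2-fold higher (11.9%) and 20 lower (29.9%). Over all genes these shares were 25.8 and 25.0%. Without a minimum level, and over class and region comparisons together, 61 of 257 were higher and 48 lower. The shares of all genes shift as well. In NoPP against JEJ enterocytes they went from 9.87% higher and 13% lower to 32.7% and 9.74% without a minimum. In IPP against NoPP enterocytes they went from 2.09% higher and 2.87% lower to 5.37% and 27.8%. The turn is therefore not read as a trait of the linkers. In enteroendocrine against enterocyte cells, DSC3, a desmosomal cadherin, was 10.5-fold lower in DUOD, 3.61-fold in JEJ, 7.70-fold in IPP and 11.5-fold in NoPP. DSG2, the main desmoglein of simple epithelia, was 7.56-fold lower in DUOD, 3.50-fold in IPP and 2.65-fold in NoPP, and within 2-fold in JEJ. These ratios carry the hormones in the enteroendocrine totals, which lower them. Of the 20 lower linker ratios, 6, 1, 4 and 4 came from the enteroendocrine cells of DUOD, JEJ, IPP and NoPP. Of all genes 40, 25.4, 22.8 and 20.4% were past 2-fold lower there. In the jejunal BEST4 cells the opposite was seen, with 6 of 9 linkers past 2-fold higher and none lower, beside 31.5% and 22.7% of all genes. There PKP2 (plakophilin 2) was 3.83-fold, DSP (desmoplakin, which binds keratin directly) 3.20-fold and JUP (plakoglobin) 2.64-fold higher. Stress genes summed to 18624.5 CPM in those BEST4 cells and 4732 CPM in the jejunal enterocytes, and their part was not tested.

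Between regions the same list gave 62 ratios, 6 past 2-fold higher (9.68%) and 8 lower (12.9%), against 12.0 and 7.63% of all genes. In JEJ against DUOD enterocytes, where KRT8 was 1.90-fold higher, DSG2 was 2.37-fold, JUP 2.30-fold and PERP, a desmosome membrane protein, 2.15-fold lower. Genes that bind or regulate keratins gave 90 ratios between classes, 14 past 2-fold higher (15.6%) and 16 lower (17.8%), against 25.8% and 25.0% of all genes. Among them HSPB1, a small heat shock protein found on keratin filaments and also held in the stress list, was 4.93-fold higher in the jejunal BEST4 cells. Other intermediate filament genes gave 14 ratios between classes, 1 past 2-fold higher (7.14%) and 3 lower (21.4%), against 25.8% and 25.0% of all genes. VIM (vimentin), the filament of mesenchymal and immune cells, was at 62.6 CPM in IPP and 106 in NoPP enterocytes, and at 1 UMI each in the enterocytes of DUOD and JEJ. T cell markers summed to 34.3 and 103 CPM in DUOD and JEJ enterocytes, and to 246 and 520 CPM in those of IPP and NoPP, and their part was not tested. The actin core of the brush border, a list of microvillus genes, was past 2-fold lower in 54 of 99 ratios against enterocytes (54.5%) and higher in 12 (12.1%), against 25.0% and 25.8% of all genes.

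The genes most like each keratin were found by Pearson correlation of log2(CPM + 10) over 23 groups of at least 10 cells, 13 epithelial and 10 immune, among 5987 genes. The groups of a region share a library, so these are descriptions. Nearest to KRT7 were NELL2 (r = 0.99), APLP1 (0.99), the granin CHGB (0.99), SCG3 (0.98) and PLCXD3 (0.98), of which CHGB and SCG3 belong to the enteroendocrine gate. Nearest to KRT8 were the epithelial genes LGALS4, KRT14, CLDN7 and KIF21A (0.98 each) and EPCAM (0.97). LGALS4, CLDN7 and EPCAM are also markers of the epithelial gate. Nearest to KRT18 were CYB561 (0.95), ID4, PPFIBP1, KCNK1 and C4orf19 (0.94 each). Nearest to KRT20 were GPA33 (0.98), an intestinal surface antigen, LGALS4, C1orf210, CLDN7 and SPINT1 (0.97 each). By rank correlation 2 of the 5 stayed among the nearest for KRT7 and KRT8 and none for KRT18 and KRT20. Among the keratins KRT8 and KRT20 were nearest (0.96), KRT8 and KRT18 less so (0.80), and KRT7 was nearest to KRT18 (0.60). The 10 immune groups had at most 32.7 CPM of KRT8 and 26.5 of KRT20, so the contrast of epithelial with immune groups enters these values. Within a class both genes could part: between regions of enteroendocrine cells KRT8 spanned 1.84-fold and KRT20 18.2-fold.

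Small sets of cells were not compared, and their levels are given as values. The 8 NoPP crypt cells had 2970 CPM of KRT8, 153 of KRT18 and 175 of KRT20. The 19 JEJ cells that met no gate had 4630 CPM of KRT8, 110 of KRT18 and 1390 of KRT20, and the 7 such DUOD cells had 4601 of KRT8, both above the KRT8 range of the 13 groups. Among immune cells, B and myeloid cells had at most 32.7 CPM of any of the 4 keratins.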

How the data were processed

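The deposited matrices hold raw UMI counts made by the authors with Cell Ranger, version 4 per the file headers and 4.0.6 per the submitters' processing notes. The genome build is not given in the sources used here. One matrix was deposited per region and pools its 4 titles. The keratins, gene lists and tests were chosen with earlier results of these data known, and the gate rule, the hormone bound and the removal of shared barcodes were set after seeing the data.

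Barcodes were filtered as stated, and the 121 NoPP barcodes found mainly in another library were left out. A cell was epithelial where its epithelial marker UMIs were at least 3 times its immune marker UMIs. It joined a class where the panel reached 100 UMIs per 10000 (enterocyte and BEST4), 200 (goblet), 50 (enteroendocrine), 20 (tuft) or 10 (crypt) from at least 3 panel genes. The 39 epithelial cells that met several gates joined none, nor did 32 that met none. No doublet caller was used in the values reported.

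UMIs were summed per region and class and divided by the group's total, giving CPM. Ratios have exact 95% intervals of a ratio of Poisson counts, shares exact Clopper-Pearson intervals, and a count of 0 was set at a floor of 3 UMIs per group. Intervals and floors cover counting error only, and a region's 1 matrix gives no spread between pigs. Genes named beside the keratins were the 5 nearest by correlation, and at most the 3 largest ratios of a list in each direction. The calculations were tested on simulated data. Alternatives were other barcode filters, gates, clusters, doublet removal, totals, background subtraction and leaving out the highest cell. Python 3.11.15, numpy 2.4.6, scipy 1.17.1, pandas 2.3.3, scanpy 1.11.5 and matplotlib 3.10.9 were used.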

Additional observations from a re-analysis of the deposited data

Results flagged for a closer look

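With hormones in the totals, the ratio of enteroendocrine to enterocyte cells differed in direction between regions for KRT8 and KRT20. The difference between regions was not tested, since each region is 1 sample. For KRT8 the ratio was 1.46 in DUOD and 3.92 in IPP but 0.866 in NoPP. Hormones took 32.1% of the UMIs of the NoPP hormone-led cells and lower the ratio, so no KRT8 direction is read for NoPP. For KRT20 the ratio was 2.38 in IPP but 0.109 in DUOD, 0.352 in JEJ and 0.759 in NoPP. Hormones lower the NoPP ratio here too, so no KRT20 direction is read for NoPP. The KRT20 level itself ran from 105 to 1916 CPM across enteroendocrine groups and from 804 to 1828 CPM across enterocyte groups.

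Keratin UMIs were also present in barcodes left out for more than 25% mitochondrial UMIs, which number 2435, 2187, 1558 and 918 in DUOD, JEJ, IPP and NoPP and hold cells of any kind. KRT8 was at 330, 459, 255 and 565 CPM there in that order of regions. KRT20 was at 305, 340, 209 and 273 CPM in the same order, and KRT18 at 32.2, 9.37, 16.3 and 28.4 CPM. KRT7 was at 1.65 CPM in DUOD, 0.594 in IPP and 1.24 in NoPP, from 39, 6 and 7 UMIs. The T cells of the kept barcodes had at most 31.4 CPM of KRT8, 26.5 of KRT20 and 2.21 of KRT18. These barcodes were not sorted into classes.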

How the results depend on the processing

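Of the 29 keratin ratios past 2-fold, 28 or 29 stayed past it in the same direction under each of the 13 settings that gave all of them a value, and none of them turned direction. With a mitochondrial limit of 10%, 10 groups of at least 10 cells were left and 14 of the 29 had a value. All 14 stayed, and because fewer groups were compared the counts were 2 keratin ratios past 2-fold lower between regions in place of 6, and 7 higher between classes in place of 16. The ratios that fell short of 2-fold under a setting are given with the results. Ratios that passed 2-fold only under a setting were, on the log2 scale, KRT8 in JEJ against DUOD enterocytes (1.06 with looser gates, 1.05 without barcodes of another library), KRT8 in jejunal BEST4 cells (1.15 and 1.07 with mitochondrial limits of 10 and 40%), KRT20 in IPP against NoPP enteroendocrine cells (1.04 to 1.44 under 3 settings), KRT7 in NoPP against DUOD enteroendocrine cells (-1.05 to -1.67 under 5), KRT18 in IPP against NoPP enterocytes (1.07 with the limit of 40%) and KRT8 in DUOD enteroendocrine cells (1.43 without hormones). By the clusters formed without keratins, 98.03% of cells kept their class. Scoring doublets and leaving out 133 barcodes changed no call. The share of all genes past 2-fold in 1 direction ran from 1.81 to 40% by comparison with a minimum of 50 CPM, from 5.19 to 35.4% with 10 CPM and from 5.37 to 55.4% with none. The linkers and desmosome genes gave 14 ratios past 2-fold higher and 28 lower of 129 over all comparisons with 50 CPM, 34 and 41 of 209 with 10 CPM and 61 and 48 of 257 with none. No paired analysis was possible because each region's titles are pooled in 1 matrix and no barcode carries a replicate number. Depth limits the 32 NoPP enterocytes and the 17 crypt and 29 BEST4 cells of JEJ, where counts of 0 allow 6.02 to 22.7 CPM, and the values with much of a count in 1 cell, such as KRT20 in jejunal crypt cells (57.8%) and KRT18 in IPP enterocytes (14 of 16 UMIs). Leaving out barcodes shared with another library and taking hormones out of the totals were settings added after seeing the data.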
